A study of Homo sapiens with 4 samples.

Results

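The nuclear genes of oxidative phosphorylation were taken by name from the GENCODE annotation of GRCh38. They were the protein-coding genes outside the mitochondrial chromosome whose symbols start with NDUFA, NDUFB, NDUFC, NDUFS, NDUFV, SDHA to SDHD, UQCR, ATP5, or COX followed by 4 to 8. The rule found 102 members among 20033 protein-coding genes and used no measured value. By complex the members were 46 genes of complex I, 8 of complex II, 9 of complex III, 19 of complex IV and 20 of complex V. The name rule also took in 12 assembly factors, 2 readthrough genes, the inhibitor ATP5IF1 and 9 paralogs known mainly from particular tissues or states, which left 78 subunits.

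RNA polymerase II (Pol II) occupancy was measured by chromatin immunoprecipitation and sequencing in SK-OV-3, an established human ovarian cancer cell line. The control cells carried shLacZ, a hairpin against a bacterial gene that human cells lack, and the knockdown cells carried shRRN3, a hairpin against the RNA polymerase I initiation factor RRN3. Each hairpin had 1 Pol II library, given as 1 list of called peaks, while the inputs were not used here. The design asks how silencing RRN3 changed where Pol II sits along genes, and since neither hairpin was replicated, the values describe these libraries and carry no measure of the spread between samples.

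Oxidative phosphorylation is carried out in the inner mitochondrial membrane. Complexes I and II pass electrons from NADH and succinate to ubiquinone, complex III passes them to cytochrome c, complex IV passes them to oxygen, and complex V uses the resulting proton gradient to make ATP. Most subunits are encoded in the nucleus by short, widely expressed genes whose promoters often carry sites for NRF1, the ETS factor GABP and YY1, while a few core subunits are encoded in mitochondrial DNA.

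The shLacZ list held 4014 peaks with a median width of 306 bp, and the shRRN3 list held 14363 peaks with a median width of 432 bp, so every count has to be read against the background of its own list. The deposited score of a peak was read as 10 × −log10 p and had a median on the primary chromosomes of 65.58 in shLacZ and 74.65 in shRRN3. Scores depend on depth, which is unknown from peak lists, and rank peaks only within a list. RRN3 itself has no transcript level in these lists, so they do not check the knockdown. Of 6 marker genes of epithelium and ovarian carcinoma, 4 had a shRRN3 peak at their start, beside 23.7% of all protein-coding genes. Only 1 of the 6, PAX8, had a shLacZ one, beside 7.56% of all. PAX8 scored 147.99 in shLacZ and 354.44 in shRRN3, whereas ERBB2 and WT1 had no such peak in either list. KRT8 and KRT18 had the same shRRN3 score, 120.86, so their calls may come from 1 shared peak. None of the 4 markers of other cell types (PTPRC, CD3E, PECAM1 and MYH7) had one in either list.

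Promoters of 6 members are given first, since the results turn on what lay over them. NDUFA7 and COX7C had the highest shRRN3 scores among members with a peak at the start in both lists. UQCRQ and NDUFA2 were the highest in the promoter table among those in shRRN3 alone, NDUFA12 was the highest of those in shLacZ alone, and ATP5ME had no peak in either. The sequences are those of RefSeq on GRCh38.p14, written 5′ to 3′ from 250 bases before to 50 bases after the RefSeq start. Capitals mark matches, on either strand, to 6 short words: GCATGCGC for NRF1, CCGGAAG for ETS factors, AAGATGG for YY1, GGGCGG for SP1, CCAAT for NF-Y and TATAAA for the TATA box.
NDUFA7, chr19:8321326-8321625, minus strand: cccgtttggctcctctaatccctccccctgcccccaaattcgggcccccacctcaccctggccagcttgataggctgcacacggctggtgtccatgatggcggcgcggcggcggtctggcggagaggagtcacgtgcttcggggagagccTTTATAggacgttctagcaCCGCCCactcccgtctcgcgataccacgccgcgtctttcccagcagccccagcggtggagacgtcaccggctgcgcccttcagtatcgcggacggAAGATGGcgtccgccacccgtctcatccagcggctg
COX7C, chr5:86617691-86617990, plus strand: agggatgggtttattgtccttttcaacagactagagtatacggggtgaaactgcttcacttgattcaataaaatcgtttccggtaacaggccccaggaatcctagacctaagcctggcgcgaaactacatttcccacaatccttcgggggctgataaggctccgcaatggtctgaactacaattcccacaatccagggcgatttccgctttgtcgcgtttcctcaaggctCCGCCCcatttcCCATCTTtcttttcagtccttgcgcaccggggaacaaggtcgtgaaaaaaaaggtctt
UQCRQ, chr5:132866392-132866691, plus strand: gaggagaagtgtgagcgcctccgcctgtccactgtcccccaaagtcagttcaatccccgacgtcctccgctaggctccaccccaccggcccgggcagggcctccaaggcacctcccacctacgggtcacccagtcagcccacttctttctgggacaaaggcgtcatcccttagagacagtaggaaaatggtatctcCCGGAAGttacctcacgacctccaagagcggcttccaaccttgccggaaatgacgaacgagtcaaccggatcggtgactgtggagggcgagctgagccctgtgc
NDUFA2, chr5:140647581-140647880, minus strand: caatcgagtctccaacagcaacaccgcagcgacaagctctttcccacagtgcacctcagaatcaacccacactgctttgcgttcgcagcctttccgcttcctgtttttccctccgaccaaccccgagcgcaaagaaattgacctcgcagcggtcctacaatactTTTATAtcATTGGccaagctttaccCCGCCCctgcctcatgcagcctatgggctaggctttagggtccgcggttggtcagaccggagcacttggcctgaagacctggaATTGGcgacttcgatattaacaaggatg
NDUFA12, chr12:95003648-95003947, minus strand: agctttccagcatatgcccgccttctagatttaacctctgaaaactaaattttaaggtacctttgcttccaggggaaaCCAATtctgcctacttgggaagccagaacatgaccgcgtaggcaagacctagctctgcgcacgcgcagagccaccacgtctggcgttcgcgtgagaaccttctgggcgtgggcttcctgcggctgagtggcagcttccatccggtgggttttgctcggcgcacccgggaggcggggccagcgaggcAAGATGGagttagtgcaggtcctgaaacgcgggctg
ATP5ME, chr4:674227-674526, minus strand: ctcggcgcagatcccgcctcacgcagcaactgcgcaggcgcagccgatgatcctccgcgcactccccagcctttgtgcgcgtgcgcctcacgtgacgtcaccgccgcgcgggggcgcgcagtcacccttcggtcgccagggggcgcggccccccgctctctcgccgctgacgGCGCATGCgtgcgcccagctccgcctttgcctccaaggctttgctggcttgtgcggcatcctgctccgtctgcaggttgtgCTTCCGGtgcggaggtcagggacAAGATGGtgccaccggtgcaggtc
The NDUFA7 promoter held the SP1 word 81 bases before the RefSeq start and the YY1 word 14 bases after it, and the NDUFA12 promoter held the YY1 word at the same distance. The COX7C promoter held the YY1 word on the minus strand, beginning 8 bases before the start. UQCRQ held only the ETS word, 54 bases before the start. ATP5ME, which had no peak, held the NRF1 word 78 bases before the start and the ETS and YY1 words 3 and 26 bases after it. A match is only a run of letters and does not show that a factor was bound.

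A gene was counted as having a peak at its transcription start site (TSS) when a peak midpoint lay within 1 kb of the start of its annotated span. In shLacZ, 14 of 102 members had a TSS peak, which is 13.7% (95% interval 7.71 to 22.0), beside 7.56% of all protein-coding genes. In shRRN3, 46 members had one, which is 45.1% (35.2 to 55.3), beside 23.7% of all. The members' share was thus 1.82 times the background in shLacZ and 1.90 times in shRRN3, so the longer list raised the members by about the same factor as genes in general. Intervals are exact Clopper-Pearson intervals and cover counting error only. With only the top 3920 shRRN3 peaks by score, the number that shLacZ had on the primary chromosomes, 16 members had a TSS peak in shRRN3 (15.7%, interval 9.24 to 24.2), beside 9.74% of all genes.

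Of the members, 9 had a TSS peak in both lists (8.82%, beside 6.41% of all genes), 37 in shRRN3 alone (36.3%, beside 17.3%) and 5 in shLacZ alone (4.90%, beside 1.15%). Of the 14 members with a shLacZ TSS peak, 64.3% (35.1 to 87.2) also had one in shRRN3, whereas the share over all 1514 genes with a shLacZ TSS peak was 84.8%. The remaining 51 members had none in either list, and 39 of these had no peak in any region examined. A gene without a peak is one that did not pass the threshold of the peak caller, which does not show that Pol II was absent.

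**Figure D1:**
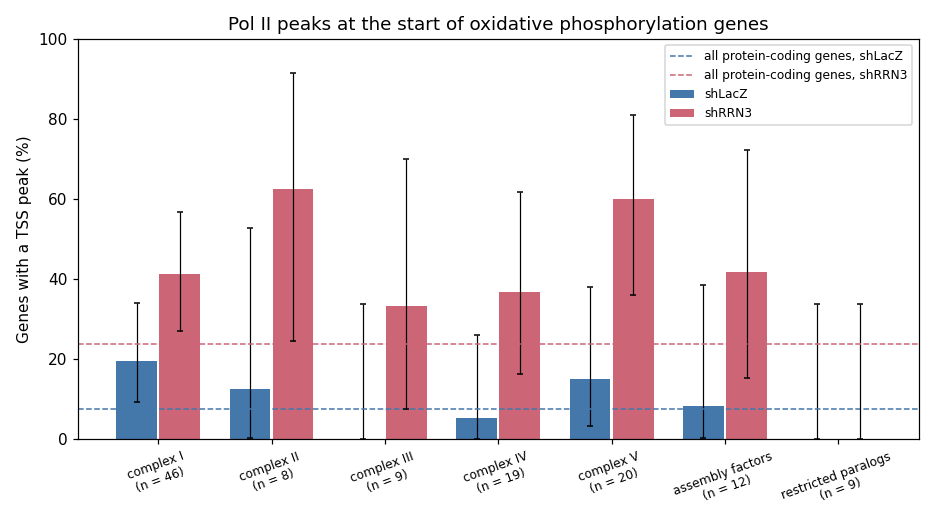
Share of genes with a Pol II peak at the TSS, in percent, for the members of complexes I to V and, across complexes, for the assembly factors and the tissue-restricted paralogs, in shLacZ (blue) and shRRN3 (red). Error bars are exact 95% intervals of counting error and dashed lines are the shares of all protein-coding genes. Complex V and complex II stood highest in shRRN3, at 60% (interval 36.05 to 80.88) and 62.5% (24.49 to 91.48). Both intervals overlap those of the other complexes, so the order is not settled. The 9 restricted paralogs were at 0 in both lists.

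Complex I oxidises NADH and is the largest of the complexes. Its members had 9 TSS peaks among 46 genes in shLacZ (19.6%, interval 9.36 to 33.9) and 19 in shRRN3 (41.3%, 27.0 to 56.8). The accessory subunits, which surround the catalytic core and stabilise it, carried most of these, with 8 of 30 in shLacZ and 15 of 30 in shRRN3. Of the 7 nuclear core subunits, which hold the flavin, the iron-sulfur clusters and the quinone site, only NDUFV2 had a TSS peak, in shRRN3, with a score of 149.11. NDUFV1, the flavin-binding partner of NDUFV2, had a shRRN3 peak of score 72.3 that lay 1147 bp past the start of its annotated span but 136 bp before the start of its canonical transcript. NDUFS1, NDUFS3, NDUFS7 and NDUFS8 had no peak in any region of either list. The interval for 1 of 7 runs from 0.361% to 57.9%, so the core and accessory groups cannot be separated at these numbers.

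Of the 8 complex I assembly factors, NDUFAF3 had a TSS peak in shLacZ and NDUFAF5, NDUFAF6 and NDUFAF7 had one in shRRN3, with scores of 86.58, 59.05 and 93.4. NDUFAF7, a methyltransferase that modifies a core subunit, shares its start region with CEBPZ, and NDUFAF5 shares its own with ESF1.

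Complex II, succinate dehydrogenase, is also an enzyme of the citric acid cycle and is the only complex without a mitochondrially encoded subunit. SDHA, the flavoprotein, had a TSS peak in both lists, and the membrane anchors SDHC and SDHD had one in shRRN3 alone, with scores of 76.08 and 74.98. SDHB, the iron-sulfur subunit, had none. The factor SDHAF2, which helps attach flavin to SDHA, scored 143.41 in shRRN3, SDHAF1 scored 69.84, and SDHAF3 and SDHAF4 had no peak.

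Complex III, which hands electrons to cytochrome c, had no TSS peak in shLacZ among 9 members, which allows a share of up to 33.3%. In shRRN3 the small subunits UQCRQ, UQCR11 and UQCRB had one, with scores of 165.72, 64.74 and 60.8. The large core proteins UQCRC1 and UQCRC2, the hinge protein UQCRH and UQCR10 had no peak in any region, and the Rieske iron-sulfur protein UQCRFS1 had peaks only past its end.

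Complex IV, cytochrome c oxidase, had COX7C in shLacZ and 7 of 19 members in shRRN3. These were COX7C, COX7B at 111.1, COX4I1 at 110.94, NDUFA4 at 77.69, COX5A at 64.63, COX6C at 63.8 and COX6B1 at 58.54. COX4I1 and COX5A are early-assembling subunits next to the catalytic core, and NDUFA4 is now counted as a subunit of complex IV despite its name. COX5B, COX6A1, COX8A and COX7A2L had no peak in any region.

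Complex V, the ATP synthase, had 3 of 20 members in shLacZ and 12 in shRRN3. In the catalytic F1 head 4 of 5 subunits had a shRRN3 TSS peak and none a shLacZ one. They were the beta subunit ATP5F1B at 208.13, ATP5F1E at 73.24, ATP5F1C at 70.98 and the alpha subunit ATP5F1A at 56.13. ATP5F1D had none. The ATP5F1A peak lay nearer to the start of HAUS1 and 6203 bp before the canonical start of ATP5F1A, where a separate peak scored 57.05. All 4 subunits of the peripheral stalk, which holds the head still against the rotor, had a shRRN3 TSS peak, namely ATP5PB at 129.17, ATP5PO at 104.26, ATP5PD at 89.14 and ATP5PF at 75.21, and ATP5PF had one in shLacZ as well.

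Among 8 membrane subunits of complex V, 3 had a shRRN3 TSS peak (ATP5MK at 144.67, ATP5MF at 109.28 and ATP5MC1 at 62.16) and 2 had a shLacZ one (ATP5MC3 and ATP5MG). The readthrough gene ATP5MF-PTCD1 was called through the same peak as ATP5MF and adds no separate observation. ATP5MC1, ATP5MC2 and ATP5MC3 encode the same mature subunit of the rotor ring, and the lists divided them. ATP5MC1 was in shRRN3 alone, ATP5MC3 in shLacZ alone, and ATP5MC2 had a single shLacZ peak of score 50.63, placed 1455 bp past its span start and 130 bp past its canonical start. ATP5ME, ATP5MJ and the inhibitor ATP5IF1 had no peak in any region.

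The 9 restricted paralogs had no peak at the TSS, in the body or past the end in either list, which allows a share of up to 33.3%. They were COX4I2, COX6A2, COX6B2, COX7A1, COX7B2, COX8C, NDUFA4L2, UQCRHL and ATP5MGL. COX6A2 and COX7A1 are known from heart and skeletal muscle, COX6B2, COX7B2 and COX8C from testis, and COX4I2 and NDUFA4L2 from hypoxic cells. Without them, 13 of 78 subunits had a TSS peak in shLacZ (16.7%) and 40 in shRRN3 (51.3%).

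**Figure D2:**
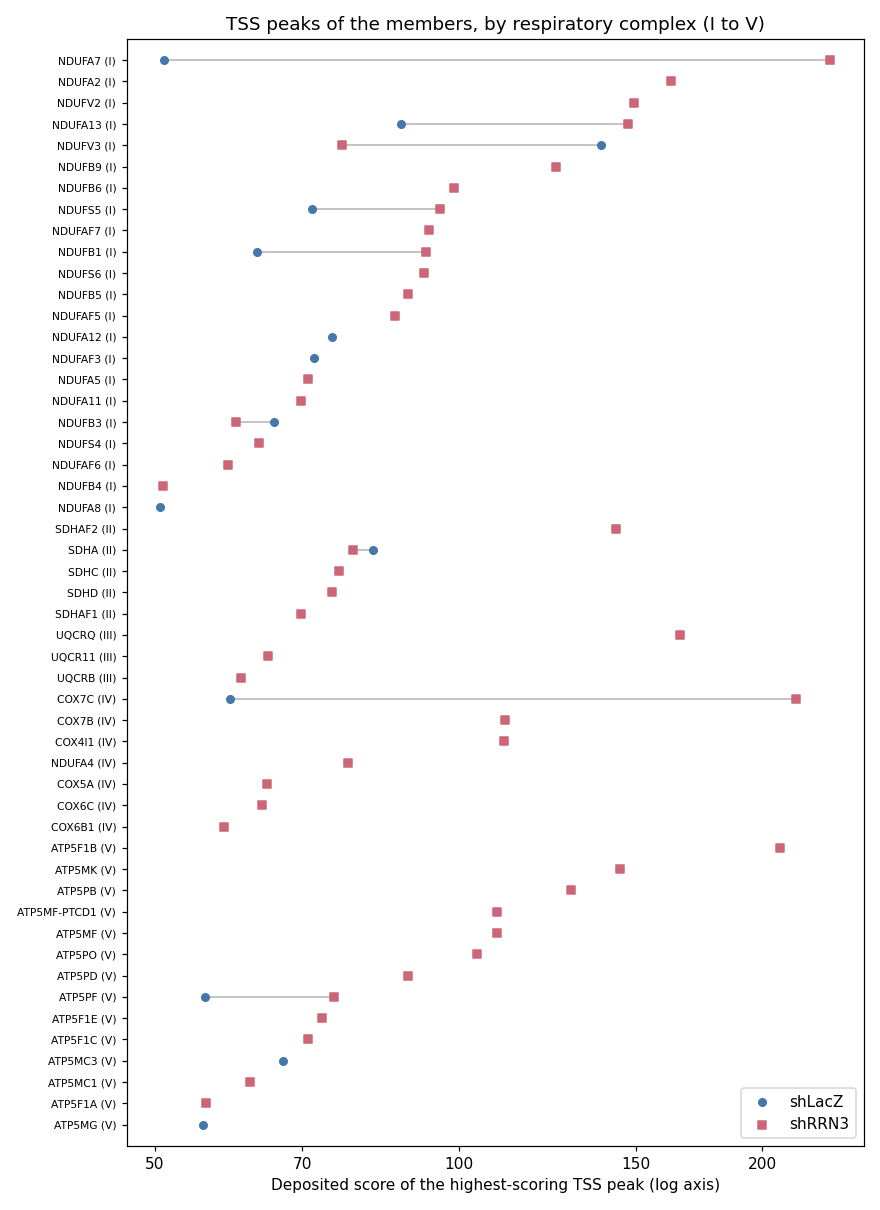
Deposited score (log axis) of the highest-scoring TSS peak of each of the 51 members that had one, grouped by complex, with blue circles for shLacZ, red squares for shRRN3 and grey lines joining members with both. Scores in shRRN3 ran from 50.92 (NDUFB4) to 233.48 (NDUFA7), and the joined pairs go in either direction. Scores depend on depth and rank peaks only within a list.

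Scores of TSS peaks were moderate within their lists. In shLacZ the members' TSS peaks had a median score of 66.34, at the 51.6 percentile of the list, beside a median of 70.62 over all genes with a TSS peak. In shRRN3 the median was 87.86, at the 62.8 percentile, beside 90.93. The widths were also close to those of other genes, with medians of 447.5 bp beside 489 bp in shLacZ and 601.5 bp beside 650 bp in shRRN3.

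The highest-scoring member in shRRN3 was NDUFA7, an accessory subunit of complex I, at chr19:8320940-8321903 with a score of 233.48. The start of RPS28, a cytosolic ribosomal protein gene on the other strand, also lies within 1 kb of this peak, and a readthrough gene shares the NDUFA7 start. The shLacZ peak scored 51.01, near the bottom of that list, where its percentile was 5.93. COX7C, a small subunit of complex IV, had a shRRN3 peak at chr5:86617728-86618218 with a score of 215.84 and a shLacZ peak of 59.31. ATP5F1B followed at chr12:56645638-56646539, with no shLacZ peak nearer than 9121 bp.

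UQCRQ, a small complex III subunit that binds near ubiquinone, lay under a peak of 1702 bp at chr5:132865739-132867440 with a score of 165.72, which covered the whole promoter shown for it. NDUFA2, an accessory subunit of complex I with a thioredoxin-like fold, scored 162.51, and its peak covered the whole promoter shown. NDUFV2 scored 149.11, NDUFA13 147.07 and ATP5MK 144.67. NDUFA13, also known as GRIM19, is both a subunit and a regulator of cell death, and ATP5MK is a small subunit that helps ATP synthase form dimers. SDHAF2, ATP5PB, NDUFB9 and COX7B completed the 12 highest, at 143.41, 129.17, 124.98 and 111.1. For 3 of the 12 the start of an opposite-strand neighbour was nearer to the peak midpoint, namely PDCD11 for ATP5MK, WDR77 for ATP5PB and MAGT1 for COX7B.

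Among the 9 members in both lists, the 2 peaks overlapped in every case. The shRRN3 peak had the higher score in 6 (66.7%, interval 29.9 to 92.5) and was the wider in 8 (88.9%, 51.7 to 99.7), beside 83.3% and 82.4% of the 1284 genes with a TSS peak in both lists. Both intervals cover the shares of all genes. Besides NDUFA7 and COX7C, the shRRN3 score was higher for NDUFA13 (87.64 in shLacZ and 147.07 in shRRN3), NDUFB1 (63.13 and 92.8), NDUFS5 (71.61 and 95.9) and ATP5PF (56.11 and 75.21). For NDUFV3 the order was the opposite, at 138.39 in shLacZ and 76.57 in shRRN3. These peaks lay 13684 bp and 13616 bp before its canonical start, where WDR4 starts within 1 kb on the other strand. By the canonical start of NDUFV3 itself only shRRN3 had a peak, of score 92.65. NDUFV3 is an accessory subunit beside the flavin site, and its score was the highest of any member in shLacZ. SDHA (82.23 and 78.61) and NDUFB3 (65.67 and 60.22) also had the lower score in shRRN3. Since scores rank peaks only within a list, these orders do not measure a change in Pol II. By percentile within each list, the same 6 members stood higher in shRRN3. The percentiles were 69.27 in shLacZ and 54.47 in shRRN3 for SDHA, and 50.14 and 29.04 for NDUFB3.

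Of the 5 members in shLacZ alone, NDUFA12, an accessory subunit that sits beside the core of complex I, scored 74.92 at chr12:95003496-95003853, with no shRRN3 peak nearer than 9124 bp. ATP5MC3 scored 67.0, and its nearest shRRN3 peak was 3184 bp away. ATP5MG, a membrane subunit linked to dimer formation, had a pair of small peaks of 55.8 and 53.1, at 130 bp before and 274 bp after its start. NDUFA8, which carries paired cysteines and faces the intermembrane space, scored 50.63, close to the lowest score of the list. NDUFAF3 scored 71.83, but a shRRN3 peak of 144.99 overlapped its peak and fell outside the window by having its midpoint 1011 bp from the start, against 956 bp for the shLacZ peak. The shLacZ-alone class thus held 4 members without an overlapping shRRN3 peak.

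The 1 kb limit decided few members. Just inside it lay NDUFAF3 in shLacZ at 956 bp, COX4I1 in shRRN3 at 957 bp and ATP5PF at 799 bp in shLacZ and 775 bp in shRRN3. Just outside it lay NDUFAF3 in shRRN3 at 1011 bp, NDUFV1 at 1147 bp and NDUFC1 at 1276 bp in shRRN3, and ATP5MC2 at 1455 bp in shLacZ. With the start of the canonical transcript in place of the span start, 15 members had a TSS peak in shLacZ and 51 in shRRN3.

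**Figure D3:**
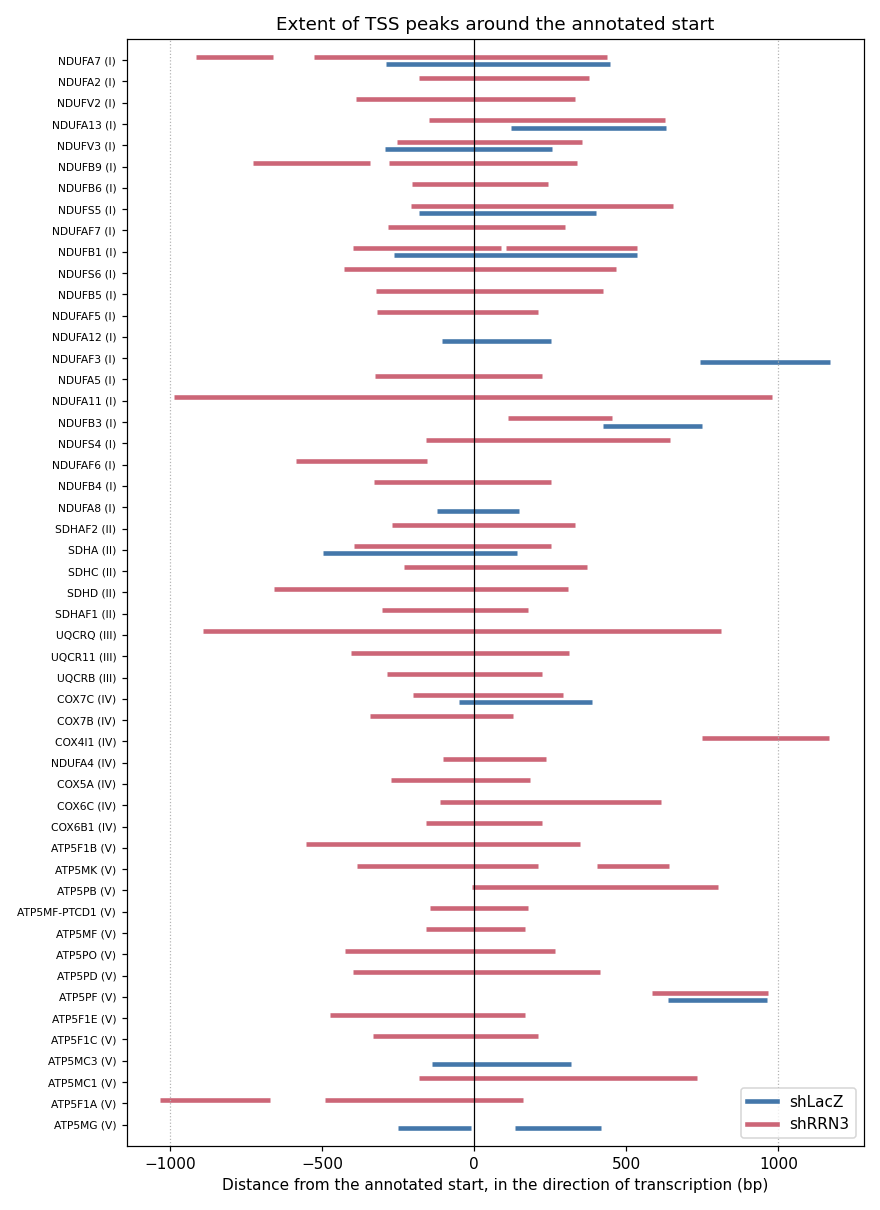
Extent of every TSS peak of the members along the distance from the annotated start, in bp in the direction of transcription, with blue bars for shLacZ and red bars for shRRN3, in the same order as the plot of scores. The solid line is the start and dotted lines are 1000 bp either side. Most bars cross the start, while those of COX4I1, NDUFAF3 and ATP5PF lie well inside the gene span.

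In shRRN3 the peaks sat close to the start, with a median offset of 4.75 bp and 84.8% of midpoints within 250 bp, beside 67.5% for all genes with a TSS peak. In shLacZ the median offset was 99 bp downstream, beside 40.75 bp for all genes, and 71.4% lay within 250 bp for members and for all genes alike. The widest was the shRRN3 peak of NDUFA11, an accessory subunit in the membrane arm of complex I, at 1967 bp.

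Many members share their start region with a gene on the other strand. A protein-coding gene started within 1 kb on the opposite strand for 37 of 102 members (36.3%), beside 13.4% of all protein-coding genes. Of those 37, 22 had a shRRN3 TSS peak (59.5%, interval 42.1 to 75.3), beside 48.7% of all genes with such a partner, and 7 had a shLacZ one (18.9%, beside 14.1%, interval 7.96 to 35.2). Of the 65 members without a partner, 24 had a shRRN3 TSS peak (36.9%, beside 19.9%, interval 25.3 to 49.8) and 7 a shLacZ one (10.8%, beside 6.55%, interval 4.44 to 20.9). The interval left out the share of like genes for members without a partner in shRRN3, and covered it in the other 3 comparisons. Another protein-coding gene, readthrough genes included, started nearer to the peak midpoint than the member did for 6 of 15 distinct TSS peaks in shLacZ and 14 of 50 in shRRN3. The peaks of ATP5PF lay nearer to the start of GABPA, those of NDUFB3 nearer to HYCC2, the shLacZ peak of SDHA nearer to CCDC127 and that of NDUFAF3 nearer to DALRD3. Which gene the Pol II at such a start belonged to cannot be told apart from these lists.

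The members also have many pseudogene copies in the genome, which can take up or hide reads. The annotation holds 195 pseudogenes named after 52 of the members. None of them overlapped a shLacZ peak and 1 overlapped a shRRN3 peak, SDHAP1, with a score of 108.9. Members with a named pseudogene had a shRRN3 TSS peak in 31 of 52 cases (59.6%) and members without in 15 of 50 (30.0%). The 50 without include all 9 restricted paralogs, none of which had a peak. Shares over all genes with and without a pseudogene were not computed, so this difference has no background beside it. How the aligner placed reads that fit several copies is not given in the sources used here, and its part in the calls was not tested.

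Inside the genes, more than 1 kb past the start, 3 members had a body peak in shLacZ (2.94%, beside 5.77% of all genes) and 24 in shRRN3 (23.5%, beside 18.1%). The members are short, with a median span of 12600 bp against 27470 bp for all protein-coding genes. Several body peaks lay at the canonical start, because an upstream transcript extends the annotated span. This held for 2 of 3 distinct body peaks in shLacZ and 9 of 28 in shRRN3, counted within 1 kb of it. Without them 1 member had a body peak in shLacZ and 16 in shRRN3.

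COX7A2, the widely expressed form of a complex IV subunit, is the clearest of these. Its shLacZ peak of 87.77 and its shRRN3 peak of 147.36 overlapped and lay 29 bp past and 43 bp before its canonical start. Others in shRRN3 were ATP5PF at 148.22, NDUFAF3 at 144.99, NDUFAF1 at 126.55, NDUFB2 at 99.31, NDUFV3 at 92.65, NDUFV1 at 72.3, NDUFAF6 at 58.49 and ATP5F1A at 57.05. The ATP5PF peak was centred 530 bp past its canonical start, with the start of GABPA within 1 kb. That of NDUFAF3 was centred 651 bp before its canonical start, with the start of DALRD3 within 1 kb. NDUFAF1 is the assembly factor CIA30, and NDUFB2 is an accessory subunit of the membrane arm. Both had no TSS peak by the span start and would gain one by the canonical start.

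More than 1 kb from both the span start and the canonical start of the same gene, the highest-scoring body peaks were those of NDUFV2 and NDUFB10. Other transcript starts were not examined. NDUFV2 had shRRN3 peaks of 220.68 and 100.8 at 14819 bp and 1664 bp past its start. Its shLacZ body peak scored 65.09 and lay 15973 bp past the start, without overlap with the shRRN3 peaks. NDUFB10, an accessory subunit that needs disulfide bonds, had a shRRN3 peak of 208.23 that was 1227 bp wide and was centred 1643 bp past its start, in a short gene with no TSS peak. Body peaks were set beside the starts of other genes but not beside their ends. Whether this peak belonged to the end of a neighbouring gene was therefore not tested. NDUFAF2, an assembly factor found on late intermediates of complex I, had shRRN3 peaks of 124.69 and 113.65 more than 100 kb into its span, at 106246 bp and 107924 bp.

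The other shRRN3 body peaks had scores under 100. They were those of UQCRQ (98.21), NDUFA11 (83.63), NDUFA2 (78.28), NDUFAF4 (69.06), ATP5MG (67.67 and 50.79), NDUFA12 (63.64), COX7C (58.18), a second peak of NDUFV3 (57.5), NDUFB4 (54.61), the readthrough gene NDUFC2-KCTD14 (52.66), ATP5F1C (51.75), NDUFC1 (51.56) and ATP5MC3 (51.43). NDUFA12, ATP5MG and ATP5MC3, which had a TSS peak in shLacZ alone, thus each had a shRRN3 peak in the body. The remaining shLacZ body peak was that of ATP5MC2, at 50.63. Of the 28 distinct shRRN3 body peaks, 8 lay within 1 kb of the start of another annotated gene.

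Within 2 kb past the annotated end, 2 members had a peak in shLacZ (1.96%, beside 1.26% of all genes) and 11 in shRRN3 (10.8%, beside 4.43%). The 2 shLacZ peaks were both overlapped in shRRN3. That of ATP5F1B scored 56.5 in shLacZ and 154.7 in shRRN3, at 1208 bp and 1117 bp past the end, and lay within 1 kb of the start of BAZ2A. That of UQCRFS1 scored 63.03 in shLacZ and 60.28 in shRRN3, at 1124 bp and 1166 bp, with no annotated start near it.

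The other 9 members had a peak past the end in shRRN3 alone. The highest was that of NDUFB4, a membrane-arm accessory subunit, at chr3:120602826-120603764, with a score of 109.47 and centred 788 bp past the end. It was followed by NDUFB1 (96.76, 1976 bp past the end), UQCRQ (91.18, 1586 bp), NDUFAF4 (81.19, 415 bp), NDUFV3 (69.3, 247 bp), NDUFC1 (66.83, 194 bp), COX7A2 (59.56, 1718 bp), NDUFAF8 (52.07, 1951 bp) and NDUFA7 (50.63, 446 bp). The NDUFA7 peak scored close to the lowest of the list and lay within 1 kb of the start of CD320. Without peaks near the start of another gene, 9 of the 11 members kept a shRRN3 peak past the end. UQCRQ, NDUFV3 and NDUFB4 had shRRN3 peaks at the start, in the body and past the end. With only the top 3920 shRRN3 peaks, 7 members had a body peak (6.86%, beside 6.0% of all genes) and 2 a peak past the end (1.96%, interval 0.238 to 6.90, beside 1.76%). At that length of list both shares were near the background.

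The promoter table held 82 of the 102 members and 15843 protein-coding promoters in all. The members without an entry included ATP5F1B, ATP5F1D, ATP5MC3, ATP5MF, ATP5MF-PTCD1, ATP5MGL, COX4I2, COX6C, COX7A1, NDUFA4, NDUFA4L2, NDUFAF6, NDUFB5, NDUFB9, NDUFC2, NDUFS5, SDHC, UQCRB and UQCRHL. The NRF1 word was in 16 member promoters (19.5%), beside 4.26% of all. The ETS word was in 23 (28.0%), beside 14.2%, and the YY1 word in 16 (19.5%), beside 6.40%. The SP1, NF-Y and TATA words were near the background, at 59.8% beside 58.5%, 34.1% beside 36.4% and 8.54% beside 9.63%. The ETS and YY1 words share letters and can overlap, and promoters of a pathway are not independent draws.

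**Figure D4:**
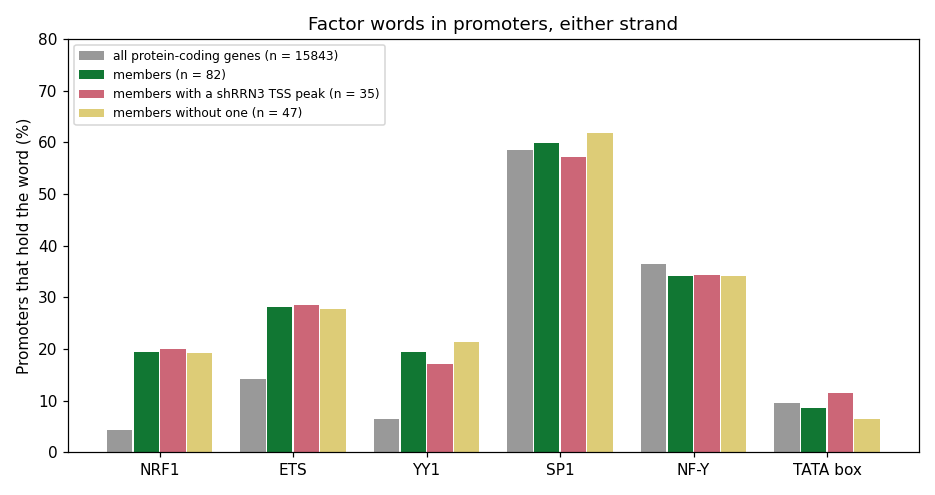
Share of promoters, in percent, that hold each factor word on either strand, for all protein-coding promoters (grey), all members (green), members with a shRRN3 TSS peak (red) and members without one (yellow). For NRF1, ETS and YY1 the member bars stand above the grey bar, and the red and yellow bars differ by less than they do from the grey bar.

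The words were then set against the calls. The NRF1 word was in 20% of the 35 promoters with a shRRN3 TSS peak and in 19.1% of the 47 without. The ETS word was in 28.6% and 27.7%, and the YY1 word in 17.1% and 21.3%. Read the other way, a shRRN3 TSS peak was found for 43.8% of the 16 members with the NRF1 word and 42.4% of the 66 without, beside 42.6% and 24.3% of all genes with and without it. For the ETS word the shares were 43.5% and 42.4% of members, beside 44.6% and 21.8% of all genes. A shLacZ TSS peak was found for 5 of 16 members with the YY1 word (31.2%) and 7 of 66 without (10.6%), beside 9.96% and 7.87% of all genes. None of these differences was tested. Of the 16 member promoters with the YY1 word, 12 held it at or after the RefSeq start (75%), beside 47.8% of all promoters with the word. That word contains the letters ATG, as a translation start does, so a match there can also be coding sequence.

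Other genes of mitochondrial energy supply were read in the same way, beside TSS shares of 7.56% in shLacZ and 23.7% in shRRN3 over all protein-coding genes. Of CYC1 and CYCS, the cytochromes that join complexes III and IV, CYCS had a TSS peak in both lists (57.94 in shLacZ and 100.8 in shRRN3) and CYC1 in shRRN3 (67.01). Of 50 assembly factors outside the name rule, 10 had one in shLacZ (20%) and 32 in shRRN3 (64.0%), all 10 being in both lists. Those with the highest shRRN3 scores were COX20 at 338.04, a chaperone of a mitochondrially encoded complex IV subunit, and LRPPRC at 285.14, which stabilises mitochondrial messenger RNAs. Of 24 regulators of nuclear respiratory genes and of mitochondrial DNA expression, 10 had one in shLacZ (41.7%, interval 22.1 to 63.4). Among these 24 regulators, 13 had one in shRRN3 (54.2%, 32.8 to 74.45). GABPA, GABPB1 and GABPB2, which form the ETS factor GABP, and SP1 and CREB1 were in both. The GABPA peaks, at 56.11 in shLacZ and 148.22 in shRRN3, are also peaks counted for ATP5PF. YY1 was in shRRN3 alone at 57.73. NRF1 was in shLacZ alone at 51.27, close to the lowest score of that list, 50.03. Of 13 citric acid cycle genes, 5 had a TSS peak in shLacZ (38.5%, interval 13.9 to 68.4) and 9 in shRRN3 (69.2%, 38.6 to 90.9).

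Beside other large assemblies the members had the lowest share in shLacZ and a share like that of the proteasome in shRRN3. Of 78 mitochondrial ribosomal protein genes 23.1% had a TSS peak in shLacZ and 62.8% in shRRN3, of 40 proteasome genes 22.5% and 45.0%, and of 85 cytosolic ribosomal protein genes 60% and 77.6%, against 13.7% and 45.1% of the members. The intervals of the members (7.71 to 22.0 in shLacZ and 35.2 to 55.3 in shRRN3) overlapped those of the mitochondrial ribosomal proteins (14.3 to 34.0 and 51.1 to 73.5) and of the proteasome (10.8 to 38.5 and 29.3 to 61.5), but not those of the cytosolic ribosomal proteins (48.8 to 70.5 and 67.3 to 86.0). The members include assembly factors and restricted paralogs as well as subunits. For the 78 subunits alone the shares were 16.7% in shLacZ (interval 9.18 to 26.8) and 51.3% in shRRN3 (39.7 to 62.8). A TSS peak in shLacZ alone was found for 5 members (4.90%), 2 proteasome genes (5.0%), 2 cytosolic ribosomal protein genes (2.35%) and no mitochondrial ribosomal protein gene.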

How the data were processed

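Pol II ChIP-seq was performed by the authors in shLacZ and shRRN3 SK-OV-3 cells with sequencing on a BGISEQ-500 instrument, 1 Pol II library per hairpin. The authors called peaks in each library and deposited lists with a score for every peak. The score was read as 10 × −log10 p, since its lowest value of 50 equals a p of 1e-05 on that scale. The peak names carry the program name MACS. The labels give hg38, and the sequence names are those of GRCh38. The aligner, duplicate handling and use of the input are not given in the sources used here, and the depth is unknown from these lists.

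Peaks were placed by midpoint on GENCODE release 44 genes of the primary chromosomes (62663 genes, 20033 of them protein-coding). The TSS class was within 1 kb of the span start, the body was the rest of the span, and the last class reached 2 kb past the end. Peaks overlapped when they shared at least 1 bp. Placement was tested on simulated peaks. Shares have exact 95% intervals, a count of 0 allows 3 counts, and no p-value was computed. Members and lists were chosen with earlier results of these data known. Values were given in full for members with a shLacZ TSS peak, the 12 with the highest shRRN3 TSS scores, those with body or past-end peaks, and the restricted paralogs. Of the members, 1 is counted but not reported here by itself. Other genes outside the members were named after their values were seen. Alternatives covered the window, overlap, score, list length, transcript start and subsets of members. Analyses ran in Python 3.11.15 with pandas 2.3.3, numpy 2.4.6, matplotlib 3.10.9 and, for intervals, scipy 1.17.1.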

Additional observations from a re-analysis of the deposited data

Results flagged for a closer look

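The mitochondrial genome, which encodes the remaining subunits of complexes I, III, IV and V, lies outside the gene comparisons and carried 10 peaks in shLacZ and none in shRRN3. The shLacZ peaks scored 50.85 to 382.81 and covered 9 of the 13 mitochondrial protein-coding genes, with the highest score over MT-CO1. This was singled out as signal in data that no comparison used. Mitochondrial DNA is transcribed by its own polymerase, POLRMT, and not by Pol II. The inputs were not used here, and what these peaks hold was not tested.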

How the results depend on the processing

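Of 77 alternative values for 11 results, 58 stayed close to the reported value and 19 moved. The ratio of the members' TSS share to the background ranged from 1.57 to 1.99 in shLacZ and from 1.61 to 2.09 in shRRN3. Windows of 0.5 kb and 2 kb, overlap in place of midpoints, the canonical start for TSS counts, and leaving out assembly factors or, as a setting added after the data were seen, the restricted paralogs moved none of the values they were applied to by over 1.5 times.

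With a minimum score of 66.05 in both lists, TSS peaks were found for 7 members in shLacZ, 4 in both lists and 3 in shLacZ alone. Body peaks then remained for 1 member in shLacZ and 15 in shRRN3, and peaks past the end for 0 and 7. With the top 3920 shRRN3 peaks alone, which scored 102.86 or more, 16 members had a TSS peak in shRRN3, of which 3 were shared and 13 were not, and 11 were left to shLacZ alone, with 7 members having a body peak and 2 a peak past the end in shRRN3. Without members that have an opposite-strand partner, the counts were 7 in shLacZ, 24 in shRRN3, 3 in both and 21 in shRRN3 alone, from 65 members. Without body peaks near the canonical start, likewise added, 1 member kept one in shLacZ. Without peaks near another gene's start, 1 member had a peak past the end in shLacZ. Each of these settings takes out peaks or members by its construction, and shRRN3 peaks taken out add to the shLacZ-alone count. No paired analysis was possible because each hairpin had 1 library.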
